A study of Homo sapiens with 4 samples.

Results

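The genes described here are 10 members of the YAP and TEAD pathway, out of 20144 protein-coding genes of the GENCODE annotation on hg19 (GRCh37): the transcriptional co-activators YAP1 and WWTR1 (the gene of TAZ), the DNA-binding factors TEAD1, TEAD3 and TEAD4, and the target genes CCN1 (CYR61), CCN2 (CTGF), ANKRD1, AMOTL2 and AJUBA. The rule names them and uses none of their values, although earlier results of these data were known when they were chosen. All 10 names were found in the annotation. For each gene, a promoter peak was a peak overlapping the 1 kb either side of any of its transcript starts, and a distal peak was a peak within 50 kb of the gene body that overlapped no such window of any protein-coding gene.

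The data are H3K27ac peak lists from 4 established human cancer cell lines, with 1 ChIP-seq library per line made with the antibody ab4729. COLO-205 is a colon line grown in RPMI with FBS, DU-145 a prostate line grown in Eagle minimal essential medium with FBS, OVCAR-3 an ovarian line grown in RPMI 1640 with FBS, and SKOV-3 an ovarian line grown in a McCoy's 5a medium with FBS. The labels name no treatment. With 1 library per line there is no replicate error, so no difference between lines has a test.

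H3K27ac, the acetylation of lysine 27 on histone H3, marks active promoters and enhancers. In the Hippo pathway, the kinases STK3 and STK4 and then LATS1 and LATS2 phosphorylate YAP and TAZ, which keeps them out of the nucleus. When this is relieved, YAP and TAZ enter the nucleus and bind TEAD factors, which recognise a short DNA core, often at distal enhancers and next to AP-1 sites, and CCN1, CCN2 and ANKRD1 are the targets most used as a readout.

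The first sequences shown are the windows just before the starts of CCN1, CCN2 and ANKRD1, the 3 members that were not marked in every line. All of them hold the TEAD core, but so do the windows of AMOTL2, YAP1, TEAD1 and TEAD4, which were marked in every line. The sequences shown are of the reference genome and do not differ between lines. Each is 250 bases on the gene's own strand, ending at the base before the canonical start, in hg19 coordinates: CCN1 at chr1:86046194-86046443 on the plus strand, CCN2 at chr6:132272513-132272762 on the minus strand and ANKRD1 at chr10:92680845-92681094 on the minus strand. Capitals mark the TEAD core, CATTCC or its reverse complement GGAATG, and the AP-1 motif, TGANTCA. None of these windows overlaps an annotated exon.
CCN1: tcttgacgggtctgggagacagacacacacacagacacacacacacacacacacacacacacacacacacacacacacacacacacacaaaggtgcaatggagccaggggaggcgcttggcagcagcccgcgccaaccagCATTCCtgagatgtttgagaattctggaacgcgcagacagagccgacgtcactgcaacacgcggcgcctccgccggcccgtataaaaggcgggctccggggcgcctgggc
CCN2: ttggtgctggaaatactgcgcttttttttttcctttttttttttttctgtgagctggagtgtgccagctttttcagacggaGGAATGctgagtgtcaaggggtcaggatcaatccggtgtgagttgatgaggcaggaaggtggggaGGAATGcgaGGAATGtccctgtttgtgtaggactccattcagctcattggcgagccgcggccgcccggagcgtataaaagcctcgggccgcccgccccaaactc
ANKRD1: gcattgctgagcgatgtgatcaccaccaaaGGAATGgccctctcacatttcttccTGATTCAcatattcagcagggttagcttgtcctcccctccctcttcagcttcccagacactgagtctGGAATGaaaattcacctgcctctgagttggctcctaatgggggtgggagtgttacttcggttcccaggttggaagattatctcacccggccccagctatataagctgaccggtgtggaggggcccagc

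CCN2 held 3 cores, which began 169, 104 and 95 bases before the start, ANKRD1 held 2, at 220 and 128 bases, and CCN1 held 1, at 110 bases. The single AP-1 match began 195 bases before the start of ANKRD1, and no TEAD core overlapped it. TEAD1 and TEAD4 themselves carried the core across their starts, in the same orientation and at the same places, and the 30 bases from 15 before the start are shown for that reason. They lie at chr11:12695953-12695982 for TEAD1 and at chr12:3068548-3068577 for TEAD4, both on the plus strand, with the cores in capitals.
TEAD1: ttCATTCCtgtcctCATTCCgaacattctt
TEAD4: ctCATTCCagccctCATTCCgcgCATTCCa

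In both genes 1 core began 13 bases and the next 1 base before the start, 12 bases apart, and TEAD4 had another that began 8 bases after it. Of 19863 protein-coding genes with a canonical start, 3 had a pair of cores of 1 orientation with this spacing in the 300 bases from 250 before to 50 after the start (0.0151%), and the one that is not a member was RAET1L. The spacing was looked for after these sequences had been seen. Over the same 300 bases, 7 of the 10 members held a TEAD core, against 2244 of 19863 genes (11.3%). At least 2 cores were found in 169 genes (0.851%) and at least 3 in 14 genes (0.0705%), among them CCN2 and TEAD4. AMOTL2 and YAP1 held 1 core each, which began 69 and 162 bases before the start. AJUBA, WWTR1 and TEAD3 had no match to these letters in this window, and ANKRD1 was the 1 member of 10 with the AP-1 letters, against 5.41% of genes. CCN1, CCN2 and ANKRD1 are textbook TEAD targets, known partly from such sites, so these counts describe the chosen genes and test nothing.

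The lists held 85576 peaks for COLO-205, 75468 for DU-145, 76093 for OVCAR-3 and 14001 for SKOV-3, from 22400000 to 36050000 ChIP tags as recovered from the peak values, with SKOV-3 the lowest. The share of peaks at promoters ran from 19.7% in COLO-205 to 54.6% in SKOV-3. The weakest listed summits had a pileup of 11 to 14 tags, and a place under the authors' calling threshold is not listed, so the absence of a peak means that none was called at this depth. Of the markers, the intestinal genes CDX2 and VIL1 had promoter peaks in COLO-205 only of the 4 lists, while LGALS4 was also marked in DU-145 and OVCAR-3 and most strongly in OVCAR-3. Of the ovarian markers, PAX8 was marked in all 4 lists, with its strongest peak in OVCAR-3 (fold 31.3), WT1 in OVCAR-3 and COLO-205 and MUC16 in OVCAR-3 and DU-145, so that SKOV-3 had only PAX8 of the 3. Of the 4 epithelial markers, KRT8 and KRT18 were marked in all 4 lists and EPCAM and CDH1 in all but SKOV-3. Of the mesenchymal markers, VIM was marked in DU-145 and SKOV-3 and ZEB1 in all 4 lists. The prostate marker HOXB13 had none in DU-145, the prostate line, and had one in OVCAR-3. The blood markers PTPRC and CD3E had none in any list.

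All 10 members had a promoter peak in OVCAR-3, where 60.5% of protein-coding genes had one. In DU-145 9 of 10 were marked against 59.9% of genes, in COLO-205 7 of 10 against 51.2%, and in SKOV-3, the shortest list, 8 of 10 against 31.6%. The same 7 genes, the co-activators, the TEADs and the targets AMOTL2 and AJUBA, were marked in all 4 lines, as were 25.2% of genes. The 3 members that varied were the classical targets: CCN1 was marked in DU-145 and OVCAR-3, CCN2 in DU-145, OVCAR-3 and SKOV-3, and ANKRD1 in OVCAR-3 alone. These patterns were shared by 2012 (9.99%), 769 (3.82%) and 933 (4.63%) protein-coding genes in turn. Marking in only some of the lines was the most common state, since 24.9% of genes were marked in no line and 25.2% in all 4. COLO-205, the colon line, lacked a promoter peak at CCN1, CCN2 and ANKRD1. When every list was cut to its 14001 strongest peaks, the length of the SKOV-3 list, 4 members were marked in COLO-205 and 4 in all 4 lines. The co-activator gene WWTR1, TEAD3 and the target AJUBA then lost their mark in COLO-205 and so varied too, CCN1 was marked in OVCAR-3 alone, CCN2 in OVCAR-3 and SKOV-3 and ANKRD1 in no line.

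**Figure D1:**
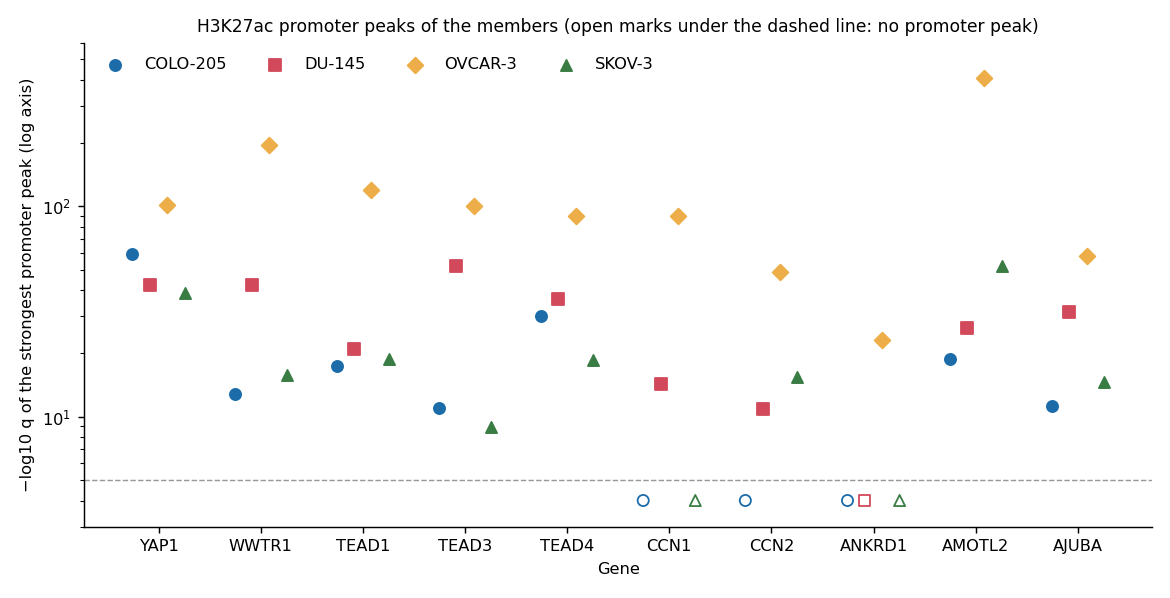
The −log10 q (log axis) of the strongest promoter peak of each of the 10 genes, with 1 point per gene and line. Open marks under the dashed line stand for no promoter peak (CCN1, CCN2 and ANKRD1 in COLO-205, CCN1 and ANKRD1 in SKOV-3, ANKRD1 in DU-145), and the OVCAR-3 point is the highest for every gene, from 23.2 at ANKRD1 to 407 at AMOTL2.

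Peak values are the fold enrichment of tags at the summit over the local background and the −log10 q of the call, both computed within 1 library and not scaled between libraries. To set lines side by side, the strongest promoter peak of each member was ranked by −log10 q among the strongest promoter peaks of all marked genes of its own list. The marked genes numbered 10308 for COLO-205, 12063 for DU-145, 12189 for OVCAR-3 and 6364 for SKOV-3. An equal percentile is therefore not an equal place among all genes. By this rank 5 of 7 marked members were above the median for COLO-205, 6 of 9 for DU-145, 9 of 10 for OVCAR-3 and 7 of 8 for SKOV-3. The median −log10 q of the marked members was 17.5 in COLO-205, where that of all marked genes was 12.1, and 31.5 against 21.5 in DU-145. In OVCAR-3 it was 95.5 against 42.7 and in SKOV-3 17.3 against 13.9.

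YAP1 (chr11:101981178-102104155, plus strand) was the member ranked highest in COLO-205 and stayed in the upper part of every list. The strongest promoter peak had a fold of 9.25 and a −log10 q of 59.5 for COLO-205, 6.23 and 42.4 for DU-145, 13.4 and 101 for OVCAR-3, and 9.52 and 39.0 for SKOV-3. Its ranks in the lists were the percentiles 98.6, 86.7, 83.2 and 93.95 in that order. The summit lay 501 to 813 bp after the canonical start in the 4 lines. The summits rested on 101, 98, 134 and 64 tags, with 95% Poisson intervals of 82.3 to 123, 79.6 to 119, 112 to 159 and 49.3 to 81.7 tags. These intervals, like the others given here, cover counting error only.

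WWTR1 (chr3:149235022-149454501, minus strand) codes for TAZ, the paralogue of YAP. Peaks at its main start were found in all 4 lines, with a fold of 3.83 and a −log10 q of 12.8 for COLO-205, 5.30 and 32.5 for DU-145, 16.4 and 196 for OVCAR-3, and 5.91 and 15.85 for SKOV-3. An internal start further into the gene was also marked, and in DU-145 it was the stronger. The peak there had a fold of 9.08 and a −log10 q of 42.4 for DU-145, 16.0 and 84.6 for OVCAR-3, and 7.47 and 15.7 for SKOV-3, with summits between 82086 and 82154 bp past the canonical start. COLO-205 had no peak overlapping the window of this internal start. In rank, WWTR1 reached the 97.2 percentile in OVCAR-3 and the 86.7 percentile in DU-145, and 53.1 in COLO-205 and 58.4 in SKOV-3. By fold its percentiles were 93.3, 96.9, 28.9 and 64.7 in the same order.

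The TEAD genes code for the factors that bring YAP and TAZ to DNA, and all 3 were marked in every line. TEAD4 (chr12:3068496-3149842, plus strand) had the smallest spread of folds of the 3, with a fold of 7.45 for COLO-205, 7.44 for DU-145, 13.5 for OVCAR-3 and 7.17 for SKOV-3. Its −log10 q was 30.3, 36.3, 90.4 and 18.7, and its rank 89.6, 79.6, 79.5 and 67.9. TEAD1 (chr11:12695968-12966284, plus strand) had a fold of 5.78 for COLO-205, 4.85 for DU-145, 15.4 for OVCAR-3 and 5.99 for SKOV-3, with a −log10 q of 17.5, 21.1, 119 and 18.8. Outside OVCAR-3, where it ranked at 87.9, TEAD1 lay between the percentiles 48.6 and 69.0. TEAD3 (chr6:35441374-35464856, minus strand) ranged most widely of all members in its percentile among the marked genes of each list. Its fold was 4.18 for COLO-205, 7.64 for DU-145, 13.7 for OVCAR-3 and 4.29 for SKOV-3, with a −log10 q of 11.1, 52.3, 100.5 and 8.97. It ranked at 93.1 in DU-145 and at 23.65 in SKOV-3, where it was the weakest marked member and the only one with a −log10 q under 10.

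CCN1 (chr1:86046444-86050272, plus strand) and CCN2 (chr6:132269316-132272512, minus strand) code for secreted matricellular proteins. At CCN1 DU-145 and OVCAR-3 each had 4 promoter peaks. The outermost summits lay 989 bp before and 1326 bp after the start in DU-145, and 1007 bp before and 1359 bp after it in OVCAR-3. The strongest had a fold of 5.22, a −log10 q of 14.4 and 37 tags in DU-145 (95% interval 26.1 to 51.0 tags), at 526 bp before the start. In OVCAR-3 the strongest had a fold of 10.6, a −log10 q of 89.8 and 138 tags (115.9 to 163.0 tags), at 185 bp after the start. By −log10 q these were the percentiles 28.8 and 79.3 of marked genes, low in DU-145 and high in OVCAR-3. By fold they were the percentiles 63.4 and 74.5, both above the median. The TEAD core of CCN1, 110 bases before the start, lay in a gap between called peaks in both lines.

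At CCN2 1 promoter peak was called in each of 3 lines. Fold and −log10 q were 3.44 and 10.9 for DU-145, 7.89 and 48.6 for OVCAR-3, and 5.88 and 15.4 for SKOV-3. The pileups were 48, 90 and 37 tags, with intervals of 35.4 to 63.6, 72.4 to 110.6 and 26.1 to 51.0 tags. By rank the DU-145 peak was weak, at the 17.9 percentile, and the ovarian lines stood near the middle of their lists, at 55.4 (OVCAR-3) and 56.3 (SKOV-3). The 3 TEAD cores lie before the start, while the summits lay 508, 210 and 269 bp after it. ANKRD1 (chr10:92671853-92680844, minus strand), which codes for an ankyrin repeat protein of the nucleus and the sarcomere, had 2 promoter peaks in OVCAR-3. The stronger had a fold of 9.33, a −log10 q of 23.2 and 34 tags (23.6 to 47.5 tags), at 687 bp after the start. It stood at the 29.3 percentile of marked genes by −log10 q and at the 66.85 percentile by fold. The other, with a fold of 7.98 and a −log10 q of 17.4, had its summit 78 bp before the start, and the 300 bases around that summit held both cores and the AP-1 match printed above. Of these only the core nearer the start, 128 bp before it, lay inside the called peak, and the other core and the AP-1 match lay beyond its end.

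**Figure D2:**
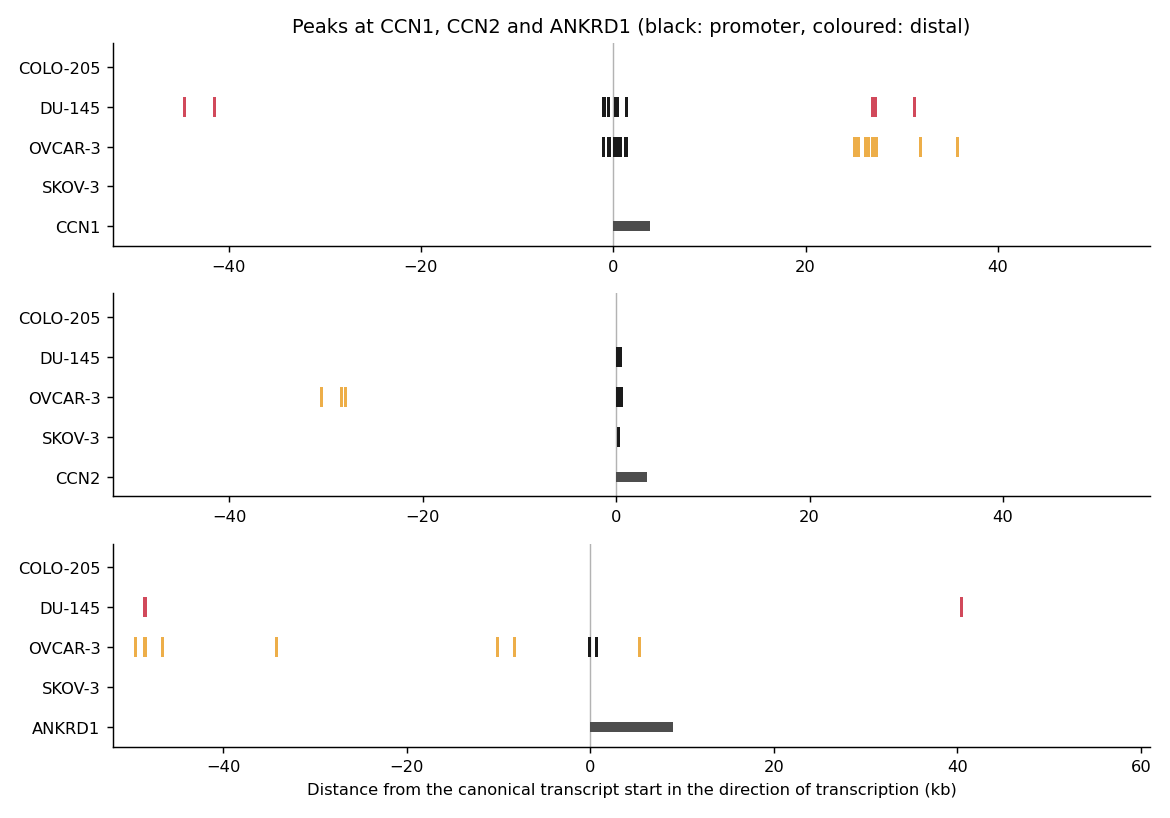
Promoter and distal peaks of each line at CCN1, CCN2 and ANKRD1 by distance from the canonical start (kb, direction of transcription), with promoter peaks in black, distal peaks in the colour of the line and the gene body in grey (the narrowest peaks are drawn at 0.3% of the axis, and peaks at promoters of other genes are not drawn). The COLO-205 row is empty at all 3 genes, and OVCAR-3 has 9 promoter or distal peaks at CCN1, 4 at CCN2 and 9 at ANKRD1.

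Beyond the promoters of these 3 genes, COLO-205 had 0 peaks of any kind within 50 kb of the gene bodies of CCN1, CCN2 and ANKRD1, and its nearest peaks lay 115624, 475237 and 148747 bp from their starts. SKOV-3 likewise had 0 peaks around CCN1 and ANKRD1, with the nearest at 1074617 and 488611 bp. In DU-145 the nearest peak to the start of ANKRD1 was 40282 bp away. Of all genes, 73.6% had at least 1 distal peak within 50 kb in COLO-205, and 7 of 10 members did. In SKOV-3 the share was 21.8% of genes and 3 of 10 members, so most genes had none there. The peak density of COLO-205 on the chromosomes of these genes was 0.903, 1.30 and 1.19 times that of its median chromosome for chromosomes 1, 6 and 10.

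AMOTL2 (chr3:134074189-134094321, minus strand), an angiomotin family protein that binds YAP and is itself a YAP target, carried the strongest promoter peak of all members. In OVCAR-3 it was 4043 bp wide, with a fold of 29.1, a −log10 q of 407 and 381 tags (344 to 421 tags). This was the 99.96 percentile of marked genes in the list, and the 99.87 percentile among the 795 marked genes of chromosome 3. The fold was 9.83 in SKOV-3, with a −log10 q of 52.1 and a rank of 98.0, against 4.63 and 18.7 in COLO-205 (72.4) and 4.82 and 26.5 in DU-145 (61.8). OVCAR-3 and SKOV-3, the 2 ovarian lines, had the higher ranks, and AMOTL2 was the highest ranked member in each of them.

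AJUBA (chr14:23440386-23451760, minus strand), a LIM domain protein that binds and restrains the LATS kinases, was marked in all 4 lines. Fold and −log10 q were 4.61 and 11.3 for COLO-205, 6.03 and 31.5 for DU-145, 8.76 and 58.1 for OVCAR-3, and 5.36 and 14.65 for SKOV-3. The strongest peak sat at another start in COLO-205, 4460 bp into the gene, and 546, 189 and 1376 bp past the canonical start in DU-145, OVCAR-3 and SKOV-3. Its rank in DU-145 was 71.8 over the whole list but 36.2 among the 489 marked genes of chromosome 14, where that list held 4.43 times the peak density of its median chromosome. The peaks next to the canonical start also overlap a start of the unnamed gene ENSG00000259132 and cannot be assigned to 1 of the 2.

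**Figure D3:**
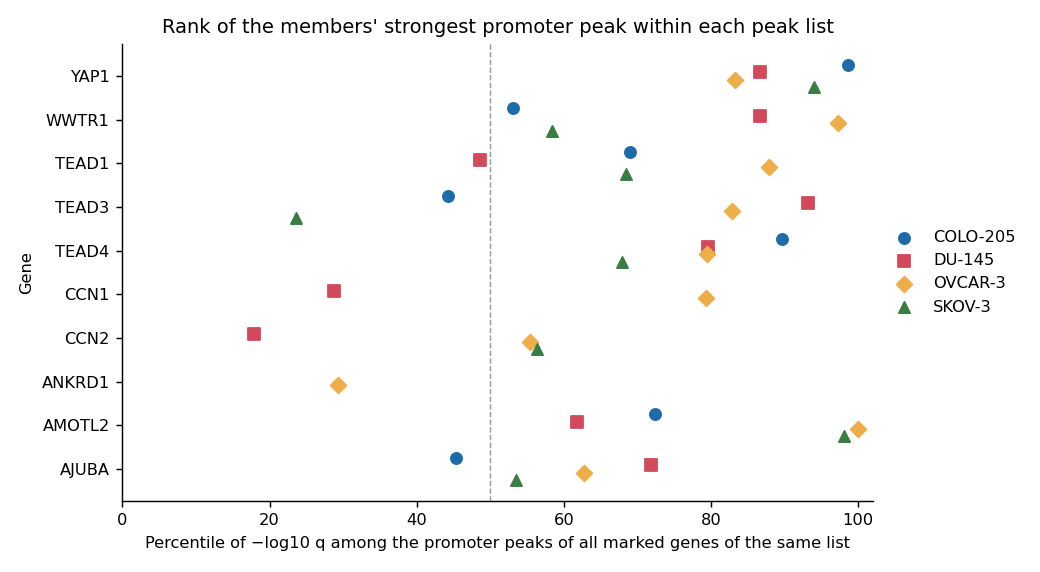
Percentile of the −log10 q of each member's strongest promoter peak among those of all marked genes of the same list, with the median at the dashed line and 1 point per gene and line where the gene was marked. AMOTL2 reaches 99.96 in OVCAR-3 and YAP1 98.6 in COLO-205, while CCN2 in DU-145 is lowest at 17.9.

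Distal sites are where most TEAD binding is known to occur. Within 50 kb of the members there were 45 distal peaks for COLO-205, 74 for DU-145, 168 for OVCAR-3 and 19 for SKOV-3. At least 1 was found at 7 members for COLO-205 (73.6% of all genes), at 9 for DU-145 (63.5%), at 9 for OVCAR-3 (59.3%) and at 3 for SKOV-3 (21.8%). AMOTL2 and WWTR1, both on chromosome 3, held 16, 44, 112 and 17 of them in the 4 lines in that order. Without these 2 genes 29, 30, 56 and 2 were left. With 14001 peaks in every list, the totals over all members were 2, 11, 26 and 19. OVCAR-3 had 2.19 times the peak density of its median chromosome on chromosome 3, whose part in the count was not tested, while COLO-205, DU-145 and SKOV-3 had 0.668, 0.564 and 0.656 times.

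**Figure D4:**
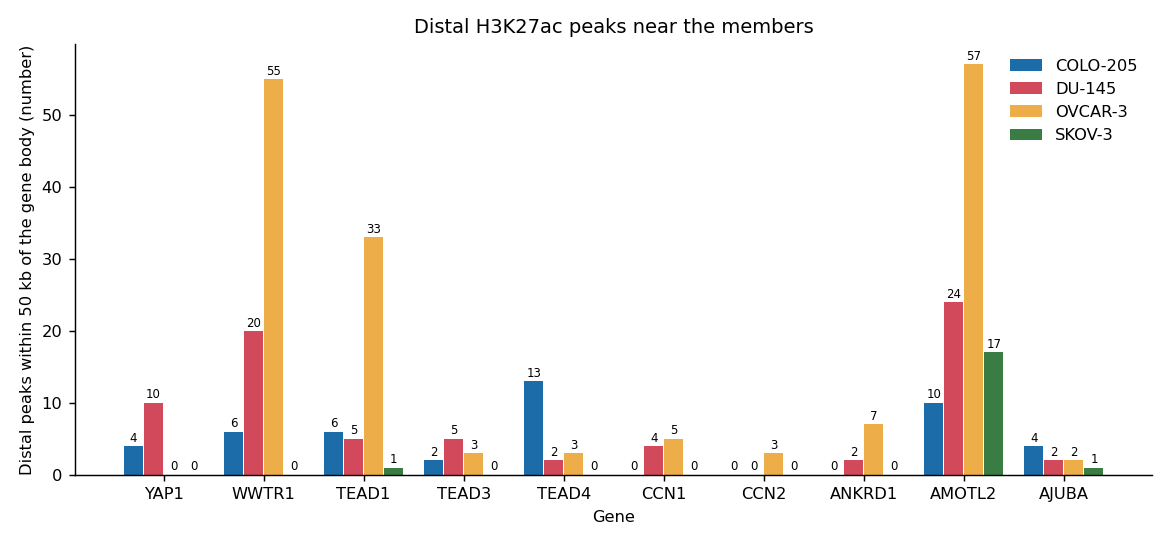
Number of distal peaks within 50 kb of the gene body for each member, with 1 bar per line. AMOTL2 has 57 in OVCAR-3 and 17 in SKOV-3, and WWTR1 55 and 0.

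AMOTL2 was the only member with at least 10 distal peaks in every line, with 10 for COLO-205, 24 for DU-145, 57 for OVCAR-3 and 17 for SKOV-3. Of all genes, 84.2% had fewer for COLO-205, 95.45% for DU-145, 98.7% for OVCAR-3 and 99.7% for SKOV-3. WWTR1 had 6, 20, 55 and 0 distal peaks in the same order, most of them inside its gene body of 219480 bp. TEAD1, with a body of 270317 bp, had 6, 5, 33 and 1. YAP1 had 4 in COLO-205 and 10 in DU-145 and 0 in OVCAR-3 and SKOV-3. TEAD4 had 13 in COLO-205, against 2 for DU-145, 3 for OVCAR-3 and 0 for SKOV-3. None of the 13 overlapped a peak of another line, where 15.9% of all distal peaks of COLO-205 did. AJUBA had 4, 2, 2 and 1, and TEAD3 had 2, 5, 3 and 0.

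**Figure D5:**
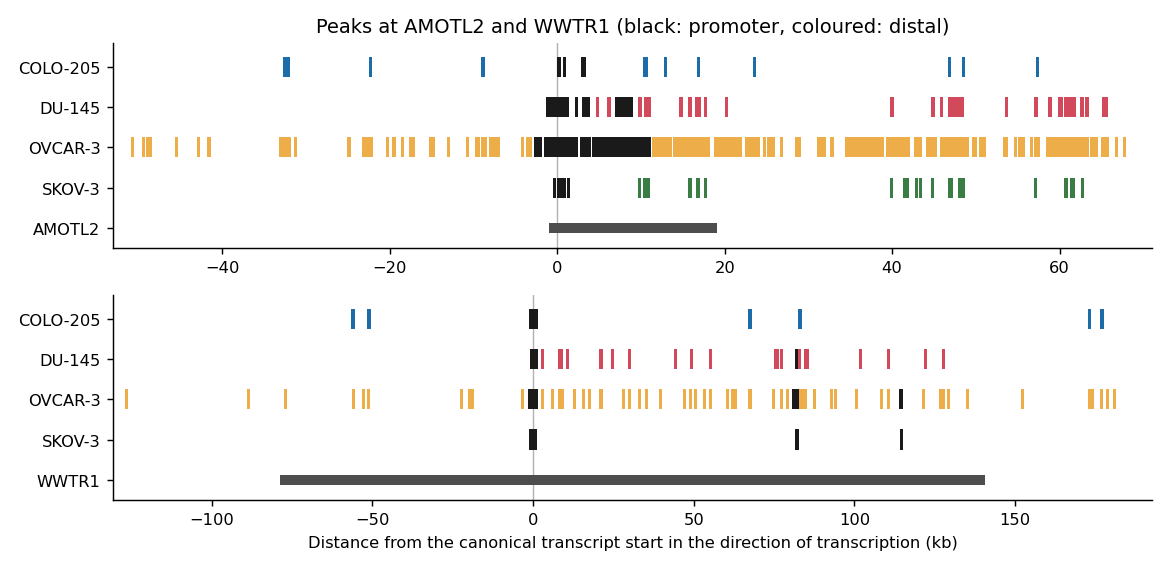
Promoter and distal peaks of each line at AMOTL2 and WWTR1 by distance from the canonical start (kb, direction of transcription), with promoter peaks in black, distal peaks in the colour of the line and the gene body in grey (the narrowest peaks are drawn at 0.3% of the axis). OVCAR-3 has 57 distal peaks at AMOTL2 and 55 at WWTR1, and the place 46939 bp past the start of AMOTL2 holds a peak in every line.

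The strongest distal peak of any member was 46939 bp past the start of AMOTL2 in OVCAR-3, in an exon of LINC02004. It was 3545 bp wide, at chr3:134044070-134047614, with a fold of 47.0 and a −log10 q of 421. All 4 lines had a peak at this place. The strongest there had a fold of 4.81 in COLO-205, 9.02 in DU-145 and 11.7 in SKOV-3, with a −log10 q of 10.6, 48.7 and 40, and the 4 summits lay between 46924 and 46969 bp past the start. Inside the OVCAR-3 peak, DU-145 had a weaker, separate peak with a fold of 4.11 and a −log10 q of 9.24, whose 300-base summit window, in an intron of LINC02004, held 3 TEAD cores. All 3 lay outside that DU-145 peak, in the gap between it and the next DU-145 peak, and inside the OVCAR-3 peak. They also lay inside a SKOV-3 peak with a fold of 8.28 and a −log10 q of 20.2.

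Joined over the lines, the distal peaks of the members formed 224 regions. Counting any peak of a line that overlapped a region, promoter peaks included, 123 were found in OVCAR-3 only, 31 in DU-145 only and 21 in COLO-205 only. The 6 regions found in all 4 lines were at AMOTL2, AJUBA and TEAD1. At AMOTL2 they were the region at LINC02004 above, a weaker one at chr3:134035595-134036338, in an intron of the same RNA, one at chr3:134075038-134079487 that covers exons and introns of AMOTL2 itself, and one at chr3:134082069-134082983 in an intron of AMOTL2. In OVCAR-3 the last lies under a peak of 7136 bp that reaches a start of AMOTL2 and so counts as a promoter peak. At TEAD1 the region was in an intron, with summits 50304 to 50408 bp past the start, at chr11:12746070-12746670, with a fold of 4.99 for COLO-205, 3.32 for DU-145, 12.7 for OVCAR-3 and 5.05 for SKOV-3. At AJUBA it was in an intron, at chr14:23448172-23448900, with a fold of 3.31, 3.68, 4.99 and 5.58. Of the members' distal peaks, 24 of 45 for COLO-205 (53.3%), 43 of 74 for DU-145 (58.1%), 45 of 168 for OVCAR-3 (26.8%) and 19 of 19 for SKOV-3 overlapped a peak of another line by at least 1 bp. Over all distal peaks of the same lists the shares were 15.9%, 25.8%, 28.6% and 66%. Most of the shared peaks were at AMOTL2 and WWTR1. Without these genes 8 of 29 were shared for COLO-205 (27.6%), 7 of 30 for DU-145 (23.3%), 11 of 56 for OVCAR-3 (19.6%) and 2 of 2 for SKOV-3.

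At CCN1 the strongest distal peak was intergenic, 27025 bp past the start, at chr1:86073283-86073944, with a fold of 12.1 and a −log10 q of 44.2 in OVCAR-3. DU-145 had a peak at the same place with a fold of 5.11 and a −log10 q of 11.6, the only distal place at CCN1 that the 2 lines shared. At ANKRD1 OVCAR-3 had 7 distal peaks, the strongest 48583 bp before the start, in an intron of ENSG00000289512, with a fold of 23.2 and a −log10 q of 89.0. This was stronger than either of its promoter peaks, and DU-145, which had no promoter peak at ANKRD1, had a peak at the same place with a fold of 5.63 and a −log10 q of 10.7. CCN2 had distal peaks in OVCAR-3 only, 3 of them within an intron of LINC01013, the strongest with a fold of 8.24 and a −log10 q of 17.8, 28378 bp before the start.

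For the regulators, the strongest distal peaks were mostly in introns of the genes themselves. TEAD3 had one of 2387 bp in OVCAR-3, at chr6:35452400-35454786, with a fold of 13.3 and a −log10 q of 122, above its promoter peak in −log10 q. YAP1 had one in DU-145 only, 67090 bp past the start, with a fold of 8.03 and a −log10 q of 21.0. WWTR1 had one in OVCAR-3 with a fold of 8.10 and a −log10 q of 43.8, and TEAD4 one in COLO-205 with a fold of 4.52 and a −log10 q of 10.4. Of the strongest distal places of the 10 members, the 300-base summit windows at TEAD3 and TEAD4 held an AP-1 match and that at WWTR1 a TEAD core, while those at CCN1, CCN2, ANKRD1, AMOTL2, AJUBA, TEAD1 and YAP1 held neither motif. The windows at TEAD3 and WWTR1, and that around the DU-145 summit at AMOTL2 with 3 TEAD cores near it, were picked for their motifs and are shown on the plus strand. They lie at chr6:35453680-35453979, chr3:149322342-149322641 and chr3:134045169-134045468, and capitals mark the motifs.
TEAD3 distal: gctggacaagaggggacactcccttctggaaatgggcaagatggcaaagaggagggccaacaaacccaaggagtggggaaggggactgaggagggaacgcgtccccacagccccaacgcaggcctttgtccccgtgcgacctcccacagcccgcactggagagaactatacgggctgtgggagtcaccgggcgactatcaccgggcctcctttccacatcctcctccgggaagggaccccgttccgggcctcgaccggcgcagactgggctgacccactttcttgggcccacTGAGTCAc
WWTR1 distal: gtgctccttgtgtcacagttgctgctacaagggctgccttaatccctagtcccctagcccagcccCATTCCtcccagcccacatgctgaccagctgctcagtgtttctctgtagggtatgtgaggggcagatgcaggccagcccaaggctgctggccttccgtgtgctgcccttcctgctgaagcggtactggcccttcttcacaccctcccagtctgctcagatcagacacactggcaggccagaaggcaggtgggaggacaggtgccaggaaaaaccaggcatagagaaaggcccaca
AMOTL2 distal: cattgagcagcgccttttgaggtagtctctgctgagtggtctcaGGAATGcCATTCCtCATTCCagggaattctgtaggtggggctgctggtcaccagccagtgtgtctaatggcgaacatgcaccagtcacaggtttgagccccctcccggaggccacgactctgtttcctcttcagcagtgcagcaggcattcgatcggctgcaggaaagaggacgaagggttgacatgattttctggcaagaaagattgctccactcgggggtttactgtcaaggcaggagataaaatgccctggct

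Among the distal peaks of the members as a whole, the TEAD core was in the 300-base summit window of 5 of 45 for COLO-205 (11.1%), 9 of 74 for DU-145 (12.2%), 27 of 168 for OVCAR-3 (16.1%) and 6 of 19 for SKOV-3 (31.6%). Over all distal peaks of the same lists the shares were 11.7%, 11.9%, 12.9% and 15.5%. All 6 in SKOV-3 were at AMOTL2. At promoter peaks the core was in 4 of 18 windows for COLO-205 (22.2%), 5 of 22 for DU-145 (22.7%), 4 of 25 for OVCAR-3 (16%) and 9 of 20 for SKOV-3 (45%), against 9.65%, 10.7%, 10.5% and 9.18% of all promoter peaks. Windows of different lines often cover the same place at a gene, and a window can reach past the ends of its peak. The core lay inside the called peak in 5, 7, 25 and 3 of the members' distal windows and in 3, 5, 3 and 5 of their promoter windows. This count was not made for all peaks, whose shares are of whole windows. AP-1 matches were in 8, 9, 13 and 2 of the members' distal windows, or 17.8%, 12.2%, 7.74% and 10.5%, where all distal peaks had 4.93%, 7.83%, 7.24% and 6.97%. The match lay inside the called peak in 5, 8, 11 and 1 of the members' windows, a count likewise not made for all peaks.

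Other genes of the pathway were counted in the same way. Of 15 genes of the Hippo kinase cassette and its inputs, 11 had a promoter peak for COLO-205, 14 for DU-145, 14 for OVCAR-3 and 10 for SKOV-3, and 10 were marked in all 4 lines. Of all genes, 51.2%, 59.9%, 60.5% and 31.6% were marked in the lines in that order and 25.2% in all 4. The 5 marked in some lines were the kinase STK4, absent in SKOV-3 only, the angiomotins AMOTL1 (DU-145 and OVCAR-3) and AMOT (OVCAR-3), the scaffold RASSF1 (DU-145 and OVCAR-3) and the cadherin FAT4 (DU-145). Of 5 other TEAD partners and family members, VGLL4, a repressor of TEAD, was marked in all 4 lines and TEAD2 in DU-145 and OVCAR-3. VGLL1, VGLL2 and VGLL3 were marked in none.

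Of 18 further target genes, 8 were marked for COLO-205, 15 for DU-145, 14 for OVCAR-3 and 11 for SKOV-3, and 6 in all 4. The shares over all genes were 51.2%, 59.9%, 60.5% and 31.6%, and 25.2% in all 4. LATS2 and PTPN14 stand in both lists. COLO-205 lacked MYOF, NUAK2, TGFB2, IGFBP3, NT5E, RBMS3, ARHGEF17, FOXF2, CCDC80 and ASAP1, all of which had a promoter peak in at least 1 other line. MYOF, NUAK2 and TGFB2 were marked in DU-145 and OVCAR-3, the lines that marked CCN1, a pattern held by 9.99% of all genes. Their −log10 q in these lines was 36.9 and 55.7 at MYOF, 17.7 and 60.9 at NUAK2, and 32.3 and 58.0 at TGFB2. ARHGEF17 and ASAP1 had the pattern of CCN2, held by 3.82% of all genes. The −log10 q at ARHGEF17 was 53.6 for DU-145, 302 for OVCAR-3 and 29.4 for SKOV-3. NT5E was marked in DU-145 and SKOV-3 (0.402% of all genes), DOCK5 in all but OVCAR-3 (0.541%) and FJX1 in all but SKOV-3 (13.0%). IGFBP3 and CCDC80 were marked in OVCAR-3 alone (4.63% of all genes), as ANKRD1 was, RBMS3 in DU-145 alone (4.35%) and FOXF2 in SKOV-3 alone (0.283%).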

How the data were processed

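H3K27ac ChIP-seq was done by the authors in 4 cell lines, with 1 library per line. Per the labels and the study's methods, the authors aligned the reads to hg19 with Bowtie2 2.1.0 and called peaks separately per library, using MACS2 2.1.0.20150603 at a q below 0.001. Each deposited peak carries a score (10 times its −log10 q, cut to an integer), its fold enrichment as a ratio of the summit pileup to the background around it, −log10 values of p and q, and a summit position. Merging of neighbours closer than 350 bp is described in the methods, but such neighbours remain in the deposited lists, which were used as they are. The score was not used further. Values are not scaled between libraries, and no column came from another series.

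Genes and transcript starts were taken from GENCODE v44lift37 on GRCh37, the build of the lists, and the sequences from the GRCh37 genome. Promoter and distal peaks were found with Python 3.11.15, numpy 2.4.6, pandas 2.3.3 and scipy 1.17.1. Summit pileups were computed as the whole number of tags that gives the deposited fold and −log10 p within 0.001, which was found for 100% of peaks, and tag totals from the lowest local background over the width of the smallest peak and 2700000000 genome positions. The scripts were tested on simulated peaks. Intervals are exact Poisson, at 95%. Distances are from the Ensembl canonical start, and motifs were searched on both strands. No test was made between lines. All 10 members are described, the distal peaks named are the strongest of each member and those found in all 4 lines, and other pathway genes are named where 1, 2 or 3 lines marked them. The separate DU-145 peak at AMOTL2, the other distal places at CCN1 and ANKRD1 and the genes marked in no line or in all lines were named after their values were seen. Some of the markers checked are not reported here. The members and lists were chosen with earlier results of these data known. Alternatives were the −log10 q, merging, equal numbers of peaks, the windows, the transcripts, the assignment to the nearest gene and the overlap.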

Additional observations from a re-analysis of the deposited data

How the results depend on the processing

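With the same number of peaks taken from every list (14001, the strongest by −log10 q), 4 members kept a promoter peak in COLO-205 and 4 in all 4 lines. CCN1 was then marked in OVCAR-3 only, CCN2 in OVCAR-3 and SKOV-3 and ANKRD1 in no line, and AJUBA, WWTR1 and TEAD3 lost their mark in COLO-205. The distal peaks fell to 2 in COLO-205, 11 in DU-145 and 26 in OVCAR-3, beside 19 in SKOV-3. At a −log10 q of at least 10 the distal peaks numbered 10 for COLO-205, 31 for DU-145, 100 for OVCAR-3 and 9 for SKOV-3, and TEAD3 lost its mark in SKOV-3. With a distal window of 20 kb SKOV-3 had 7, and with 100 kb DU-145 had 120. The other alternatives kept every count within 1.5 times, and no member gained or lost a promoter peak with windows of 500 or 2500 bp, with merging, with a −log10 q of at least 5 or with protein-coding transcripts only. Leaving out SKOV-3, which was added once the values were known, gave 7 members marked in the other 3 lines. With 50% of a peak covered in place of 1 bp, 22, 41, 32 and 19 distal peaks were shared. No paired analysis was possible because each line has 1 library. A depth of 22400000 to 36050000 tags limits what weak peaks could be called, and 1 library per line leaves the spread between cultures unknown.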
